A study of Homo sapiens with 15 samples.

Results

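The 8 genes described here are the human NFAT family, NFATC1, NFATC2, NFATC3, NFATC4 and NFAT5, and the RCAN family, RCAN1, RCAN2 and RCAN3. They are 8 of the 62700 genes listed in the count tables, and each symbol matched 1 row of each table. NFATC2 was chosen from the measured values, for its rise in sphere culture and its fall with both PDK1 hairpins. Its values in those contrasts are therefore a description without a test. The other 7 genes were taken because they belong to the same families.

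Calcium released into or entering the cytoplasm binds calmodulin, which activates the phosphatase calcineurin. Calcineurin removes phosphates from NFATC1, NFATC2, NFATC3 and NFATC4, which then enter the nucleus and bind DNA, often next to AP-1 proteins, until kinases phosphorylate them again and they leave. NFAT5 shares the DNA-binding fold but lacks the calcineurin docking region and is known for the response to salt stress. The RCAN proteins bind calcineurin and can inhibit it, and RCAN1 is a classical target gene of NFAT, so it is often read as a feedback arm. In bone, NFATC1 is best known as the master regulator of osteoclast formation.

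RNA sequencing was done on 143B, an established human osteosarcoma cell line, in 15 libraries, 3 for each of 5 conditions. Non-OSCs were grown attached in DMEM with serum and OSCs (osteosarcoma stem cells) as spheres in serum-free DMEM/F12 with B27, EGF and basic FGF. The other 3 conditions were spheres of cells infected with lentiviral vectors: shCtrl, shPDK1#1 or shPDK1#2, where PDK1 is pyruvate dehydrogenase kinase 1, which restrains entry of pyruvate into mitochondrial oxidation. OSC and non-OSC therefore differ in attachment, medium and serum together, all cells come from 1 line, and nothing says that the 3 libraries of a condition came from separate cultures, so the p-values measure the spread between these libraries, which may be technical. The OSC and non-OSC libraries form one table and the shRNA libraries another, and levels were not compared between the tables.

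Library totals ran from 7992499 to 11256536 counts over the 15 libraries. PDK1 mRNA was 46.7, 44.7 and 44.4 CPM (the read count scaled to the normalized size of its library) in shCtrl, 29.0, 27.8 and 27.3 CPM under shPDK1#1, and 18.3, 21.5 and 19.6 CPM under shPDK1#2. It was thus at 62.0% of shCtrl with the first hairpin and 43.7% with the second, with no overlap of the groups. Among 8 osteoblast lineage markers, the collagen gene COL1A1 and SPARC (osteonectin) were abundant while IBSP (bone sialoprotein) and SP7 (osterix) were at or near 0, and the summed level of the list was 976 to 1052 CPM in the non-OSC libraries, 1972 to 2066 in the OSC libraries, 2191 to 2273 in shCtrl, 2350 to 2449 under shPDK1#1 and 2813 to 2953 under shPDK1#2. Most of that sum was COL1A1 and SPARC, with means of 417 and 550 CPM in non-OSCs and 1057 and 946 CPM in OSCs. In contrast, RUNX2 went from 37.7 CPM in non-OSCs to 17.3 in OSCs and ALPL from 2.66 to 1.49. Of 4 such markers tested in OSCs against non-OSCs 2 were called higher and 1, RUNX2, lower, where 63.9% of all genes were called. Of 5 tested in the shRNA libraries 1 was called higher with shPDK1#1 and 3 with shPDK1#2. Over all genes, 3.06% and 26.2% were called. The collagen gene COL1A2, 1 of those 3, had 13 to 16 counts under shPDK1#2 and 1 to 4 in shCtrl and under shPDK1#1. It passed the filter on low counts only through shPDK1#2, so it could only be called higher there. Of 5 markers of leukocytes, the cells in which NFAT was first studied, 4, PTPRC, CD3D and CD3E among them, had at most 3 counts in every library, and the sum of the list reached 2.52 CPM at most. The remaining marker, CD14, was lower in OSCs (0.38 CPM) than in non-OSCs (2.19 CPM). It passed the filter on low counts only through its non-OSC libraries, so it could only be called lower in OSCs. In the shRNA libraries CD14 did not pass the filter.

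The sequences before 4 annotated starts are shown because the RCAN1 gene carries an internal start known for its response to calcineurin, and because NFATC2 has a pair of starts that differ in sequence. They are the 250 bases upstream of the start, on the minus strand, from RefSeq on GRCh38.p14, 5′ to 3′. Capitals mark GGAAA on either strand (the core that NFAT binds, TTTCC when read on the other strand), TGACTCA (the AP-1 motif), TGACGTCA (the cyclic AMP response element, CRE) and TATAAA on the strand of the gene.
RCAN1, start 4 of 6, chr21:34526823-34527072: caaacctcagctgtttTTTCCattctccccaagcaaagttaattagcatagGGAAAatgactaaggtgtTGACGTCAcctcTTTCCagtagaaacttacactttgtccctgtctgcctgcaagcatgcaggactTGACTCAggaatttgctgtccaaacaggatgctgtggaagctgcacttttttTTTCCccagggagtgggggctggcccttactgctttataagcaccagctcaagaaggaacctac
RCAN1, start 1 of 6, chr21:34615114-34615363: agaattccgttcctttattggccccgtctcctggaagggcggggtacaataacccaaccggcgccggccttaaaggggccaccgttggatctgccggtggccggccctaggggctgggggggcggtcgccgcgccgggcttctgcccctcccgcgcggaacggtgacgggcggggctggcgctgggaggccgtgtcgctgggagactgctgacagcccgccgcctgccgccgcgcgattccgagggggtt
NFATC2, start 1 of 2, chr20:51562840-51563089: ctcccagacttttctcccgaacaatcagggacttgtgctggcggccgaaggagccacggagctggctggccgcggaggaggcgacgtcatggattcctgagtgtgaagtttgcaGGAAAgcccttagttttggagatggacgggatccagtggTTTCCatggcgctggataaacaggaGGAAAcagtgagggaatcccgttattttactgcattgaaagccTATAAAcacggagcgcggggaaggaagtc
NFATC2, start 2 of 2, chr20:51542720-51542969: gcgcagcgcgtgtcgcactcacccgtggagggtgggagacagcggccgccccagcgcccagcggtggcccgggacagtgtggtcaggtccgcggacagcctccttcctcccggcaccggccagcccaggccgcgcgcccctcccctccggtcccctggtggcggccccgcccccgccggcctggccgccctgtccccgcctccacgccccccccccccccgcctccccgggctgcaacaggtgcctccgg

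Start windows of 300 bases, from 250 before to 50 after the start, were held for 20 starts of 7 genes, and NFAT5 had none. The internal window of RCAN1 at start 4 held 5 NFAT cores, 1 AP-1 motif and 1 CRE. The AP-1 motif began 116 bases before the start and the CRE 181 bases before it, and the 5 NFAT cores began at -234, -199, -169, -64 and 9. Of 35116 such windows over 27305 genes, 0.74% held at least 5 NFAT cores, 4.95% the AP-1 motif and 1.85% the CRE, and 13 windows (0.037%) held all 3 kinds together. In contrast, the windows at starts 1, 2 and 3 of RCAN1 held none of the 4 motifs.

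NFATC2 start 1 held 3 NFAT cores, beginning 136, 97 and 72 bases before the start, a number that 9.94% of all windows reach or pass. It also held TATAAA 29 bases before the start, as 7.33% of windows do somewhere. Start 2, which carries the MANE transcript of the gene, held none of the 4 motifs, and its GC content was 80.7% against 57.7% at start 1 and a median of 58.7% over all windows. A match of letters is not a binding site, and gene-level counts do not tell which start was used.

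**Figure D1:**
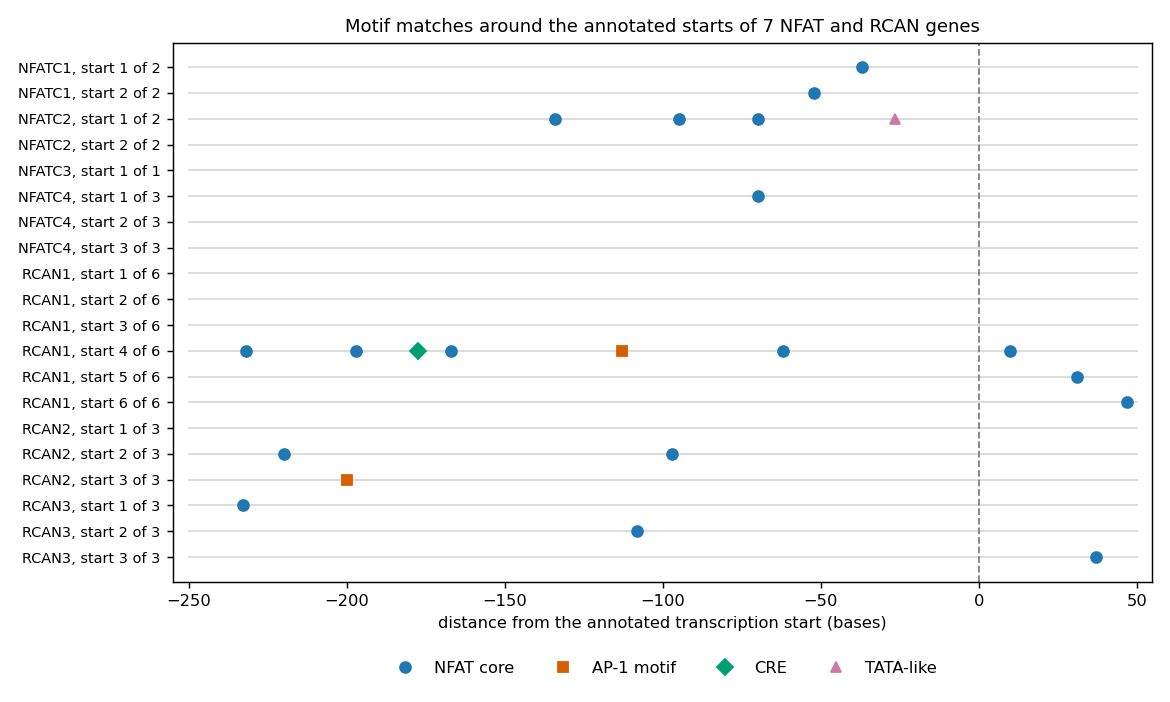
Matches to 4 short motifs around the annotated starts of 7 NFAT and RCAN genes. The horizontal axis is the distance from the start in bases, each grey line is one window of 300 bases, and each symbol is the centre of one match. RCAN1 start 4 carries 7 matches, the most of the 20 windows, and NFATC2 start 1 carries 4.

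Within the NFAT family, sphere culture went with higher mRNA of NFATC1, NFATC2 and NFATC4, while NFATC3 was slightly lower and NFAT5 was not called. All 3 RCAN genes were higher in OSCs than in non-OSCs. Of the 7 genes other than NFATC2, 6 were called, 5 higher and 1 lower, by edgeR's quasi-likelihood test at an adjusted p under 0.05. The background was high: 63.9% of the 14287 genes tested were called in this comparison, 32.4% higher and 31.5% lower. The median log2 fold change of the 7 genes was 1.01, against -0.0053 over all genes tested. In these bulk libraries, fewer cells that express a gene and less RNA per cell cannot be told apart.

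NFATC2 (chr20:51386957-51562831, minus strand), also known as NFAT1, is a calcineurin-regulated NFAT of lymphocytes and many other cells. It had 15, 17 and 19 counts in the non-OSC libraries, or 1.45, 1.86 and 2.09 CPM, and 317, 386 and 360 counts in the OSC libraries, or 39.1, 39.1 and 43.5 CPM. The gene was thus close to absent in attached cells and well detected in each sphere library. The mean was 22.5-fold higher in OSCs, with a log2 fold change of 4.49 ± 0.15 (SE), which is the value that chose the gene.

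NFATC1 (chr18:79395856-79529325, plus strand) measured 16.4, 20.9 and 19.9 CPM in non-OSCs and 33.4, 32.3 and 37.0 CPM in OSCs. The groups did not overlap, and the log2 fold change was 0.84 ± 0.11 (SE, adjusted p = 5.54e-07, edgeR). NFATC4 (chr14:24365673-24379604, plus strand), known from neurons and heart muscle, measured 31.8, 38.2 and 39.7 CPM in non-OSCs and 86.5, 74.7 and 90.7 CPM in OSCs. Every sphere library was above every attached library here too, with a log2 fold change of 1.20 ± 0.090 (SE, adjusted p = 1.40e-10, edgeR).

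NFATC3 (chr16:68084751-68229259, plus strand) went the other way by a small step. It measured 40.3, 40.1 and 35.6 CPM in non-OSCs and 35.0, 31.0 and 33.8 CPM in OSCs, a log2 fold change of -0.22 (95% interval -0.41 to -0.03, adjusted p = 0.0368, edgeR). The call was weak: it was lost under 7 of 11 alternative settings, with adjusted p up to 0.175, including when non-OSC replicate 1 (log2 fold change -0.19), non-OSC replicate 2 (-0.20), OSC replicate 2 (-0.17) or OSC replicate 3 (-0.22) was left out. In addition, 33.0% of the annotated exon bases of NFATC3 lie opposite exons of other genes and 19.0% overlap genes on its own strand. The overlapping genes held at most 72.9 counts in a library, in ENSG00000262160.

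NFAT5 (chr16:69565094-69704666, plus strand) measured 76.0, 75.1 and 65.2 CPM in non-OSCs and 83.7, 74.7 and 75.7 CPM in OSCs. The groups overlapped, and the log2 fold change was 0.11 with a 95% interval of -0.04 to 0.26 (adjusted p = 0.194, edgeR), which leaves room for a rise of up to 0.26 on the log2 scale. A gene on the same strand, ENSG00000260772, covers 7.83% of the exon bases of NFAT5 and held 55.5 to 123 counts per library.

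RCAN1 (chr21:34513142-34615113, minus strand), the calcineurin inhibitor whose internal start is shown above, measured 27.3, 25.1 and 26.8 CPM in non-OSCs and 113, 94.0 and 95.7 CPM in OSCs. The lowest sphere library was above 3 times the highest attached one. The mean rose 3.82-fold, a log2 fold change of 1.93 ± 0.084 (SE, adjusted p = 1.55e-14, edgeR). A gene on the same strand, ENSG00000288711, shares 13.2% of the exon bases of RCAN1 but held at most 2.25 counts in any library.

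RCAN2 (chr6:46220736-46491972, minus strand), which codes for a related calcineurin-binding protein, was at 3.28, 2.85 and 4.74 CPM in non-OSCs and at 18.6, 18.6 and 21.6 CPM in OSCs. The mean rose 5.42-fold, a log2 fold change of 2.44 ± 0.18 (SE, adjusted p = 8.32e-11, edgeR), the largest among the 7 tested genes. RCAN3 (chr1:24502351-24541040, plus strand), from the same family, was at 24.2, 22.8 and 22.8 CPM in non-OSCs and at 49.5, 49.6 and 41.6 CPM in OSCs. It rose 2.02-fold, a log2 fold change of 1.01 ± 0.095 (SE, adjusted p = 5.11e-09, edgeR), with no overlap of the groups.

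**Figure D2:**
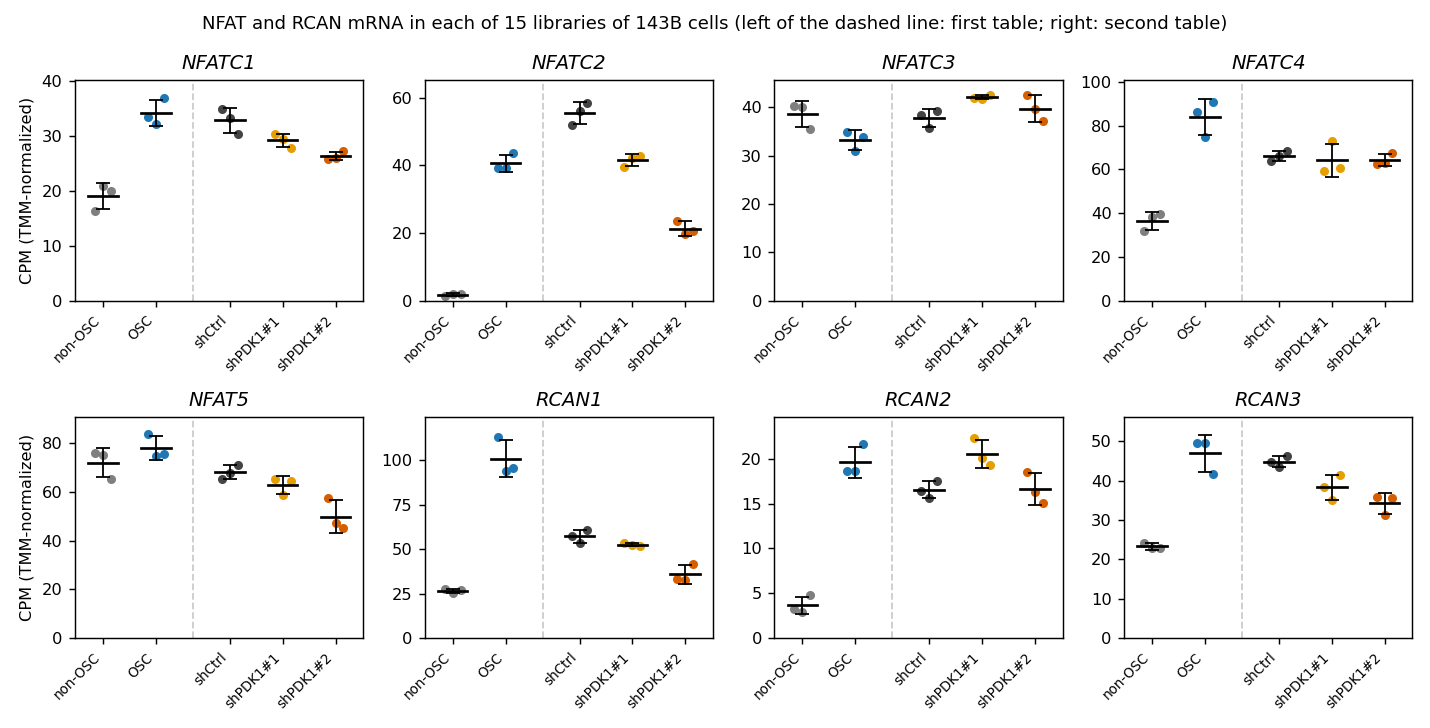
Normalized mRNA level (CPM) of each of the 8 genes in the 15 libraries. Each point is a library, bars are the mean and the whiskers 1 SD of 3 libraries, and the dashed line separates the 2 count tables, between which levels were not compared. NFATC2 sits between 1.45 and 2.09 CPM in non-OSCs and between 39.1 and 43.5 CPM in OSCs, while NFAT5 overlaps between these groups.

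The hairpins were next compared with shCtrl in one fit of the 9 shRNA libraries. Both comparisons share the 3 shCtrl libraries, so they are not independent of each other. NFATC2 was at 51.9, 56.0 and 58.4 CPM in shCtrl, at 39.4, 42.1 and 42.9 CPM under shPDK1#1 and at 23.7, 19.6 and 20.5 CPM under shPDK1#2. The 3 groups did not overlap. NFATC2 was at 74.8% of shCtrl with the first hairpin, a log2 fold change of -0.41 ± 0.079 (SE), and at 38.4% with the second, a log2 fold change of -1.38 ± 0.086 (SE). These falls chose the gene and are given without a test.

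With shPDK1#1, none of the other 7 genes passed the threshold by edgeR or by DESeq2, beside 3.06% of 14574 genes called. An unadjusted p under 0.05 was found for 2 of them, RCAN2 and RCAN3. RCAN2 was at 16.4, 15.7 and 17.5 CPM in shCtrl and 22.3, 20.1 and 19.3 CPM under shPDK1#1, a log2 fold change of 0.31 (95% interval 0.08 to 0.54, adjusted p = 0.158, edgeR). RCAN3 was at 44.6, 43.5 and 46.2 CPM in shCtrl and 38.3, 35.2 and 41.4 CPM under shPDK1#1, a log2 fold change of -0.22 (95% interval -0.39 to -0.05, adjusted p = 0.179, edgeR). The groups did not overlap for 5 of the 7 genes (NFATC1, NFATC3, NFAT5, RCAN2 and RCAN3), beside 19.3% of all genes tested. For RCAN1 the 95% interval of the log2 fold change, -0.29 to 0.05, leaves room for a fall of up to 0.29 on the log2 scale.

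With shPDK1#2, 4 of the 7 genes fell, NFATC1, NFAT5, RCAN1 and RCAN3, and none rose. The background was 26.2% of 14574 genes called, 12% higher and 14.2% lower. The median log2 fold change of the 7 genes was -0.32, against 0.0083 over all genes tested.

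RCAN1 fell the most of these 4. It measured 57.6, 53.4 and 60.7 CPM in shCtrl, 53.5, 52.0 and 52.0 CPM under shPDK1#1 and 33.2, 32.5 and 41.7 CPM under shPDK1#2. All libraries of the second hairpin were below the other 6. RCAN1 was at 62.5% of shCtrl, a log2 fold change of -0.68 ± 0.085 (SE, adjusted p = 7.86e-07, edgeR).

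NFAT5 measured 65.5, 68.0 and 71.1 CPM in shCtrl, 65.2, 58.6 and 64.6 CPM under shPDK1#1 and 57.5, 47.2 and 45.1 CPM under shPDK1#2. It was at 73.3% of shCtrl with the second hairpin, a log2 fold change of -0.44 ± 0.079 (SE, adjusted p = 0.000104, edgeR). The gene that responds to salt stress and does not depend on calcineurin was therefore among those that fell. The overlapping gene ENSG00000260772 moved alongside it, with 67.4 to 96.3 counts in shCtrl and 55.5 to 58.7 counts with shPDK1#2, and its part in the result was not tested.

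RCAN3 measured 35.9, 31.1 and 35.5 CPM under shPDK1#2, below all shCtrl libraries and at 76.3% of their mean (log2 fold change -0.39 ± 0.083 SE, adjusted p = 0.000852, edgeR). Antisense genes, RCAN3AS and NCMAP-DT, lie opposite 17.5% of its exon bases. NFATC1 measured 34.9, 33.3 and 30.4 CPM in shCtrl, 30.4, 29.4 and 27.9 CPM under shPDK1#1 and 25.8, 26.1 and 27.2 CPM under shPDK1#2. It was at 80.2% of shCtrl with the second hairpin (log2 fold change -0.32 ± 0.086 SE, adjusted p = 0.00648, edgeR), a smaller step than that of the other 3 genes called.

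The other 3 genes were not called with shPDK1#2. NFATC4 ranged from 64.0 to 68.2 CPM in shCtrl and from 62.3 to 67.3 CPM under shPDK1#2, a log2 fold change of -0.04 (95% interval -0.19 to 0.11, adjusted p = 0.725, edgeR). RCAN2 had a log2 fold change of 0.01 (95% interval -0.22 to 0.25, adjusted p = 0.953, edgeR), with 18.5, 16.3 and 15 CPM in the hairpin libraries. NFATC3 ranged from 35.6 to 39.3 CPM in shCtrl and from 37.1 to 42.6 CPM with the hairpin, a log2 fold change of 0.08 (95% interval -0.08 to 0.24). NFATC4 and RCAN2, both higher in spheres, thus kept intervals around 0 with the stronger hairpin.

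The hairpins were also compared with each other, since shPDK1#2 left less PDK1 mRNA. Of the 7 genes, 2 differed, NFAT5 and RCAN1, both lower with shPDK1#2, beside 16.3% of 14574 genes called. The log2 difference was -0.33 ± 0.079 for NFAT5 (SE, adjusted p = 0.00448, edgeR) and -0.56 ± 0.085 for RCAN1 (SE, adjusted p = 3.00e-05, edgeR). For RCAN2 the log2 difference was -0.30 (95% interval -0.53 to -0.07), and its adjusted p of 0.0661 passed the threshold, at 0.0369, when shPDK1#2 replicate 1 was left out. NFATC2 with shPDK1#2 was at 51.3% of its level with shPDK1#1. Whether the difference between the hairpins goes with the depth of the knockdown or with the sequence of the hairpin cannot be told apart.

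**Figure D3:**
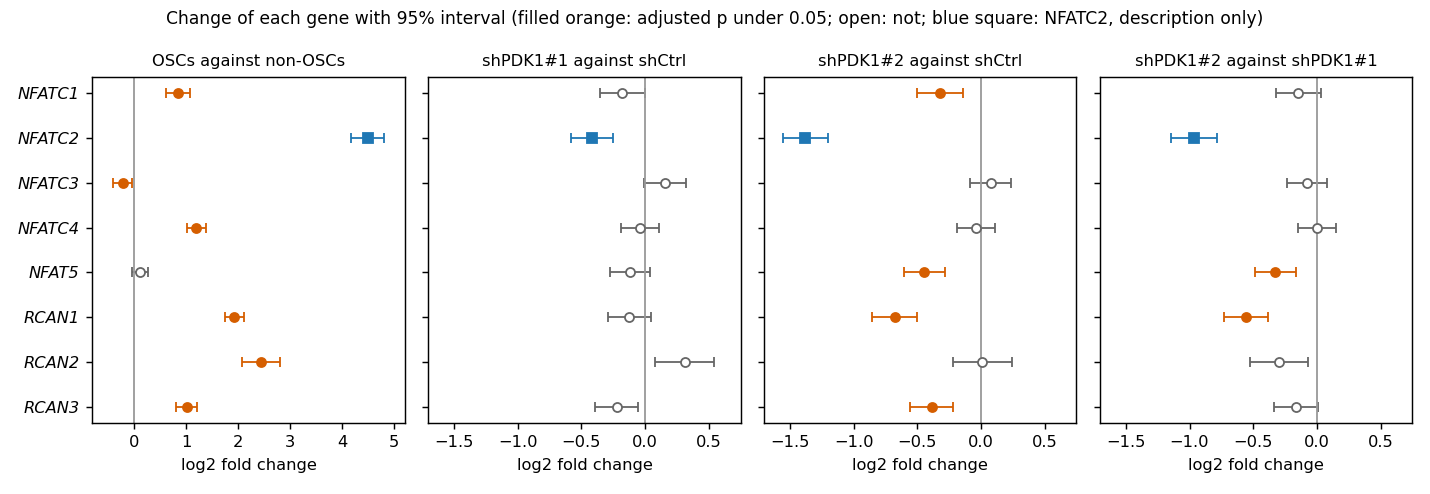
Log2 fold change of each gene (horizontal axis) with its 95% interval in the 4 comparisons. Filled circles passed an adjusted p of 0.05 by edgeR, open circles did not, and the blue square is NFATC2, shown without a test; the first panel has a wider axis than the others. Of the 7 tested genes 6 are filled for OSCs against non-OSCs, 0 for shPDK1#1, 4 for shPDK1#2 and 2 between the hairpins.

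Levels of different genes were compared per kilobase of annotated exon. In non-OSCs the calcineurin-regulated NFAT mRNA was mostly NFATC3 (4.39 ± 0.30 CPM per kilobase, SD, n = 3) and NFATC4 (4.33 ± 0.49), which overlapped, followed by NFATC1 (2.10 ± 0.26), while NFATC2 was the lowest of all 8 genes at 0.217 ± 0.040. In OSCs NFATC4 led the NFAT genes with 9.95 ± 0.99 CPM per kilobase and NFATC2 came next with 4.89 ± 0.31, and NFAT5, NFATC3 and NFATC1 followed between 3.77 and 3.85 with overlapping libraries. NFATC2 made up 1.96 ± 0.28% of the summed level of the 4 calcineurin-regulated NFAT genes in non-OSCs and 21.9 ± 1.0% in OSCs. That sum was 11 ± 0.65 CPM per kilobase in non-OSCs and 22.4 ± 1.65 in OSCs. NFATC2 was chosen for its rise, so the rise of its share and part of the rise of the sum follow from that choice.

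Among the shRNA libraries, NFATC2 held 29.8 ± 1.2% of the summed NFAT level in shCtrl, 24.3 ± 1.12% with shPDK1#1 and 14.6 ± 1.19% with shPDK1#2 (SD, n = 3). In shCtrl it stood at place 3 of the 8 genes, at 6.69 ± 0.40 CPM per kilobase and overlapping RCAN3, and with shPDK1#2 at place 7, at 2.57 ± 0.26 and overlapping both neighbours, NFATC1 and NFAT5. The calcineurin-regulated NFAT sum was 22.4 ± 0.45 CPM per kilobase in shCtrl, 20.6 ± 0.95 with shPDK1#1 and 17.6 ± 0.35 with shPDK1#2. NFATC2, chosen for its falls, is part of this sum, so the fall of the sum follows in part from that choice. The other genes of the sum were NFATC4 (7.84, 7.62 and 7.61 in these groups), NFATC3 (4.29, 4.78 and 4.52) and NFATC1 (3.63, 3.22 and 2.91).

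The RCAN genes kept a different balance. RCAN1 was the highest of the 8 genes in OSCs, at 14.5 ± 1.5 CPM per kilobase, and overlapped NFATC4 at the top in shCtrl (8.22 ± 0.53 against 7.84 ± 0.25). With shPDK1#2 it came second at 5.14 ± 0.74, below NFATC4 (7.61 ± 0.32) in every library and overlapping RCAN3 (4.79 ± 0.37). The summed RCAN level was 8.0 ± 0.40 in non-OSCs, 26.2 ± 1.59 in OSCs, 18.8 ± 0.96 in shCtrl, 18.3 ± 0.61 with shPDK1#1 and 14.3 ± 0.86 CPM per kilobase with shPDK1#2. The share of RCAN2 in that sum was 23.1 ± 0.16% in shCtrl, 29.5 ± 1.69% with shPDK1#1 and 30.7 ± 3.65% with shPDK1#2.

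**Figure D4:**
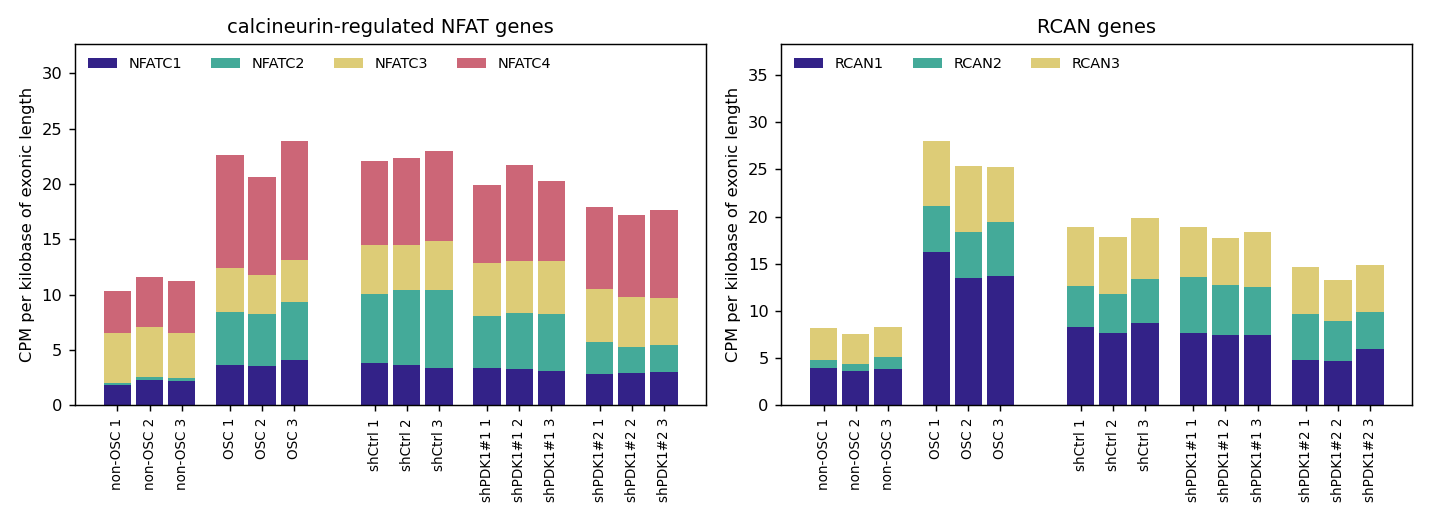
Stacked levels of the calcineurin-regulated NFAT genes (left) and of the RCAN genes (right) in CPM per kilobase of exonic length, one bar per library. The NFATC2 band is 1.96% of the bar on average in non-OSCs and 21.9% in OSCs. In the other table it is 29.8% in shCtrl, 24.3% with shPDK1#1 and 14.6% with shPDK1#2. The gap separates the 2 tables, between which heights were not compared.

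The genes whose profile was most like that of NFATC2 were found by the mean of Pearson's r of log2 CPM over the 6 libraries of the first table and over the 9 of the second, among 14046 genes. The first 5 were YWHAH, a 14-3-3 adaptor protein, ATF3, a stress-induced transcription factor, SHISA2, a protein that holds back the maturation of FGF and Wnt receptors, TRIB1, a pseudokinase, and IDS, a lysosomal sulfatase, each with a mean r of 0.993. The libraries fall into a few groups, so these values describe shared group differences, and 814 genes had a mean r over 0.9. NFATC2 was itself chosen for its rise in spheres and its falls with both hairpins. The paper reached ATF3 from genes higher in OSCs and lower with both hairpins, so the likeness of ATF3 and NFATC2 follows in part from these choices. ATF3 averaged 2.41 ± 0.10 CPM in non-OSCs, 50.2 ± 0.20 in OSCs, 31.7 ± 0.20 in shCtrl, 22.5 ± 2.46 with shPDK1#1 and 8.65 ± 0.88 with shPDK1#2 (SD, n = 3). YWHAH had the same order with far smaller steps, from 143 ± 1.93 to 169 ± 1.22 CPM in the first table and 139 ± 5.88, 125 ± 1.81 and 91.8 ± 2.43 CPM in the second. Among the family members, RCAN1 came closest (mean r 0.956, place 293), then RCAN3 (0.924, place 577) and NFATC1 (0.903, place 792), and NFATC3 had a negative value (-0.48).

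The enzymes on either side of NFAT were then described. Of 8 genes for calcineurin subunits and calmodulin, 7 were tested, and PPP3R2, the subunit of testis, was not. In OSCs 6 rose and 1 fell, against 63.9% of all genes called. The catalytic subunit PPP3CC rose from 7.35 to 15.7 CPM (log2 fold change 1.09, adjusted p = 8.47e-07, edgeR) and PPP3CA from 85.3 to 134 CPM (log2 fold change 0.65), while the calmodulin gene CALM2 fell from 338 to 275 CPM (log2 fold change -0.30). The list had a median log2 fold change of 0.34. None was called with shPDK1#1, where the median was 0.014, and with shPDK1#2 CALM2 fell (log2 fold change -0.18, adjusted p = 0.00464, edgeR) while the calcineurin subunits were not called.

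The NFAT kinases return NFAT to the cytoplasm. In OSCs 5 of 7 rose and 1 fell, against 63.9% of all genes called, with DYRK1B (log2 fold change 0.78), DYRK1A (0.57) and GSK3B (0.41) the largest rises and CSNK1A1 (-0.27) the fall. With shPDK1#1 none was called, and with shPDK1#2 GSK3B (log2 fold change -0.23) and CSNK1A1 (-0.18) fell, a share near the 26.2% of all genes called. Without shCtrl replicate 1 the count of 2 was 1. An annotated gene on the same strand covers 49.3% of the exon bases of CSNK1A1. Of 3 other proteins that bind calcineurin, CABIN1 rose in OSCs (log2 fold change 0.45, adjusted p = 2.17e-06, edgeR), AKAP5 and CHP1 were not called, and none was called with either hairpin.

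Of 19 genes for calcium release, entry and removal, 16 were tested in the first table, and 11 rose and 1 fell in OSCs, against 63.9% of all genes called, with a median log2 fold change of 0.50. ITPR1, the receptor that releases calcium from the endoplasmic reticulum on binding IP3, rose from 40.8 to 163 CPM (3.99-fold, adjusted p = 3.99e-17, edgeR). ATP2B4, a pump that exports calcium, rose 1.95-fold, and PLCG2, a phospholipase upstream of IP3, fell from 7.36 to 3.8 CPM. With shPDK1#2 1 of 17 rose and 4 fell, a share near the 26.2% of all genes called. ITPR1 rose again, from 87.9 to 120 CPM (log2 fold change 0.45, adjusted p = 8.65e-07), while its paralogs ITPR3 (log2 fold change -0.39) and ITPR2 (-0.26), the entry channel ORAI1 (-0.26) and ATP2B4 (-0.70, adjusted p = 1.99e-10, edgeR) fell. With shPDK1#1 ATP2B4 alone was called, at an adjusted p of 0.0498 (log2 fold change -0.19), a call that did not hold without shCtrl replicate 1 or 3, any of the 3 shPDK1#1 replicates, or shPDK1#2 replicate 1 or 3. The count of 5 with shPDK1#2 was 3 without shCtrl replicate 3.

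Of 14 known target genes of calcineurin and NFAT, only 7 could be tested in the first table. Those not tested include the T-cell genes IL2, IL4, IFNG and CD40LG. In OSCs 6 of the 7 rose, where 32.4% of all genes were called higher, with a median log2 fold change of 2.68 for the 7. PTGS2 (cyclooxygenase-2) was at 26.1, 24.1 and 26.7 CPM in non-OSCs and at 487, 444 and 449 CPM in OSCs, an 18-fold rise (adjusted p = 3.04e-22, edgeR). CXCL8 (interleukin-8) rose 9.31-fold, EGR2 6.39-fold, EGR3 3.37-fold and F3 (tissue factor) 2.73-fold. CSF2 (the cytokine GM-CSF) had 1, 4 and 0 counts in non-OSCs and 35, 54 and 40 counts in OSCs. CSF2 passed the filter on low counts only through its OSC libraries, so it could only be counted as a rise. The 6 of the 7 and the median of 2.68 include it. These genes also answer to growth factors, cytokines and stress through other transcription factors.

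The target genes did not follow 1 direction with the hairpins. PTGS2 was at 160, 164 and 176 CPM in shCtrl and rose to 221, 200 and 222 CPM under shPDK1#1 (log2 fold change 0.37, adjusted p = 0.000113, edgeR). With shPDK1#2 it fell to 94.5, 83.7 and 92.7 CPM (log2 fold change -0.88, adjusted p = 6.87e-12, edgeR). The 2 hairpins thus moved PTGS2 in opposite directions, with a log2 difference between them of -1.25 (adjusted p = 1.20e-14, edgeR). CXCL8 fell with shPDK1#2 from 15.2 to 6.59 CPM (log2 fold change -1.19). The other 4 of 6 genes tested were not called, EGR2 with a log2 fold change of 0.14 (95% interval -0.15 to 0.42). Over all genes, 26.2% were called with shPDK1#2. The list had a median log2 fold change of 0.20 with shPDK1#1 and 0.06 with shPDK1#2.

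Of 6 osteoclast genes that NFATC1 controls, 3 were tested. Over all genes, 63.9% were called in OSCs, 3.06% with shPDK1#1 and 26.2% with shPDK1#2. CTSK (cathepsin K) rose in OSCs from 1.82 to 8.17 CPM and OSCAR, an osteoclast receptor, fell from 11.1 to 7.06 CPM. CTSK had 26, 19 and 8 counts in non-OSCs and 66, 77 and 71 counts in OSCs. With its non-OSC libraries alone CTSK would not have passed the filter on low counts, so the filter favoured a rise. ITGB3 (integrin beta 3) was at 30.8, 31.9 and 31.4 CPM in shCtrl, at 21.8, 23.1 and 22.9 CPM under shPDK1#1 and at 19.6, 20.7 and 15.8 CPM under shPDK1#2. It fell with both hairpins (adjusted p = 0.00498 and 2.13e-06, edgeR), and a gene on its own strand covers 33.2% of its exon bases. OSCAR also fell with shPDK1#2, from 3.97 to 1.39 CPM.

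Of 8 osmotic target genes of NFAT5, 5 were tested. In OSCs 3 of the 5 were called, against 63.9% of all genes. SLC5A3 (the myo-inositol transporter) rose 3.98-fold and SLC6A6 (the taurine transporter) 2.62-fold in OSCs, where NFAT5 itself was not called. HSPA1B (a heat shock protein) also rose in OSCs, 1.75-fold, and its reads can be shared with its near-identical copy. With shPDK1#2, where NFAT5 fell, SLC6A6 (log2 fold change 0.42) and HSPA4L (0.71) rose and AKR1B1 (aldose reductase, -0.31) fell. Over all genes, 26.2% were called with shPDK1#2 and 3.06% with shPDK1#1. HSPA1B alone was called with shPDK1#1 (log2 fold change 0.36), a call that was lost without shCtrl replicate 1, 2 or 3 or shPDK1#1 replicate 2.

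**Figure D5:**
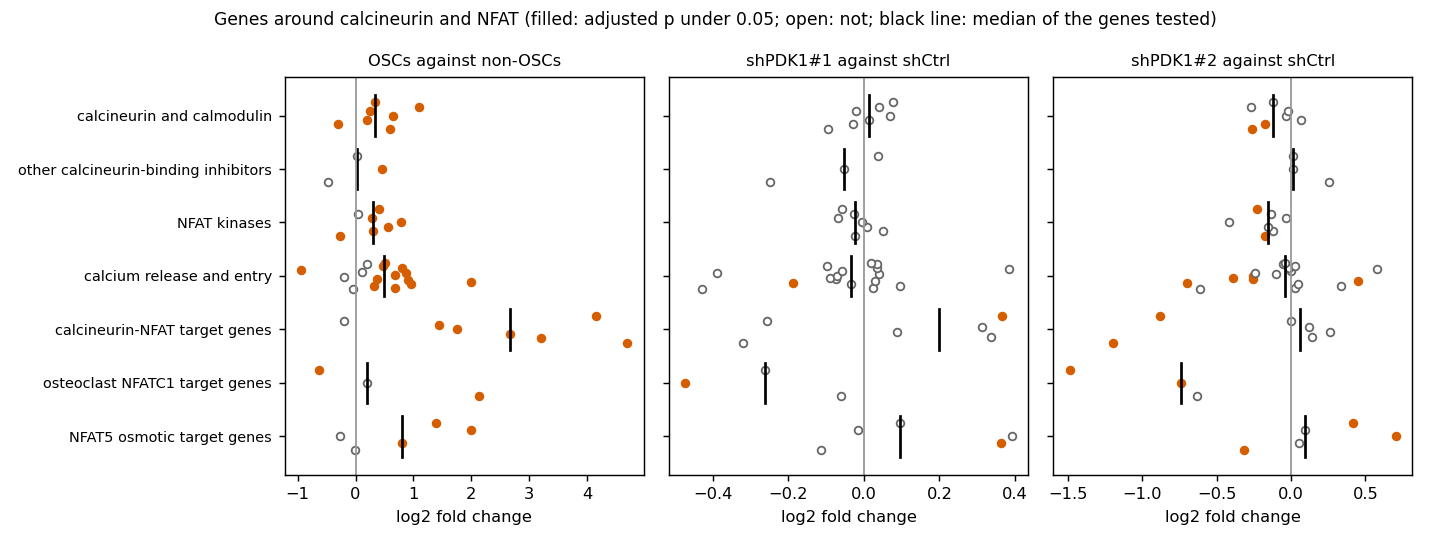
Log2 fold change of the genes of 7 lists around calcineurin and NFAT, each panel on its own axis. Each circle is a gene, filled where the adjusted p by edgeR was under 0.05, and the black line is the median of the genes tested. The target genes of calcineurin and NFAT sit at a median of 2.68 in OSCs against non-OSCs and at 0.20 and 0.06 with the hairpins. The median of 2.68 includes CSF2, which passed the filter on low counts only through its OSC libraries.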

How the data were processed

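Per the submitters' processing notes and methods, RNA of 143B cells was sequenced on an Illumina NovaSeq 6000, trimmed with Trimmomatic 0.39, checked with FastQC 0.12.1, aligned to GRCh38.p14 with STAR 2.7.11a and counted with RSEM 1.3.3. The authors deposited expected counts per gene, not normalized, in 2 tables, of which 6.85% and 6.92% of the values were not whole. The annotation and the strand setting were not given in the sources used here. All identifiers matched GENCODE 44, which gave symbols, coordinates and exons. Columns named 2D and 3D were read as attached and sphere culture, and 0 columns were left unmapped.

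Counts were rounded to whole numbers and tested with edgeR 4.0.16 in R 4.3.3 (TMM normalization, filterByExpr by group, quasi-likelihood F-test, Benjamini-Hochberg adjustment over all genes tested, threshold 0.05), each table in 1 fit. Totals of 7992499 to 11256536 counts put the floor of 3 counts under 0.4 CPM. SE and 95% intervals of log2 fold changes were derived from that fit, the SE from the F statistic of each test. On simulated data the fit was checked for recovery of changed genes and the error of the fold change, not for SE or intervals. In all 15 pairs of replicates the counts differed beyond Poisson error, with a chi-square statistic of 1.95 to 3.67 times its degrees of freedom. Motifs were matched in the RefSeq start windows. DESeq2 1.42.0, library size alone, other count filters, a replicate block and the loss of each library were tried as alternatives. Plots were drawn with Python 3.11.15, pandas 2.3.3 and matplotlib 3.10.9.

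The 8 genes and the 9 other lists were chosen with earlier results of these data known. The genes named are the 8 members, PDK1, the 5 genes most like NFATC2, and up to 6 genes of a list in each comparison, the called ones with the largest change or otherwise the highest in CPM. The values of some genes of these lists are not reported here.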

Additional observations from a re-analysis of the deposited data

Results flagged for a closer look

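NFAT5 and RCAN1 differed between the hairpins by the test of the difference itself. The log2 fold change of shPDK1#2 against shPDK1#1 was -0.33 for NFAT5 (adjusted p = 0.00448, edgeR) and -0.56 for RCAN1 (adjusted p = 3.00e-05, edgeR). For both, every library of the second hairpin was below every library of the first. That also held for NFATC1 and RCAN2, which were not called. The groups thus did not overlap for 4 of the 7 genes, beside 30.7% of all genes tested. NFAT5 and RCAN1 were below shCtrl with shPDK1#2, and neither was called with shPDK1#1. PDK1 mRNA was at 62.0% of shCtrl with the first hairpin and 43.7% with the second, and its part in these differences was not tested.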

How the results depend on the processing

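Over 11 alternative settings in the first table and 15 in the second, 392 values of the 7 genes other than NFATC2 were recomputed from 28 results. The direction and the call held in 384, 7 calls were lost and 1 was gained, and 0 reversed. All 7 losses were the fall of NFATC3 in OSCs, under DESeq2, with library size alone, without a count filter and in 4 of the 6 settings that leave out 1 library. The gain was RCAN2 between the hairpins without shPDK1#2 replicate 1. The log2 fold change of NFATC2 stayed between 4.34 and 4.61 in OSCs, between -0.46 and -0.38 with shPDK1#1 and between -1.46 and -1.32 with shPDK1#2. Of 504 recomputed list counts, 471 were within 1.5 times the main count and 33 moved.

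The number of genes called with shPDK1#1, 446, ranged from 245 to 508 when 1 library was left out. It was 270 without shCtrl replicate 1, 282 without shCtrl replicate 2 and 245 without shPDK1#1 replicate 3. None of the 7 genes tested was called with shPDK1#1 under any alternative.

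Samples of the same replicate number deviated together in 4 of 12 pairs (correlation over 0.1, range -0.061 to 0.30). Samples of different numbers did so in 2 of 24 pairs (range -0.20 to 0.14). The main fit did not take the numbers as pairs, and a fit that used them is given next. With the replicate number as a block, 9420 genes were called in OSCs against non-OSCs, 507 and 3943 with the hairpins and 2522 between them, and 6, 0, 4 and 2 of the 7 genes, as without the block.

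At these depths NFATC2 rests on 15 to 19 counts in non-OSCs, so the size of its fold change is less precise than its direction. Counts per gene do not separate the annotated starts, and protein, phosphorylation and location of NFAT were not measured.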
